A study of Mus musculus with 12 samples.

Results

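The 9 genes described here are Igf1, which encodes insulin-like growth factor 1, Igf1r, which encodes its receptor, and Igfbp1 to Igfbp7, which encode IGF binding proteins. They were taken by symbol from 55487 genes counted, all 9 were found, and 8 passed the filter on low counts; Igfbp1 did not. The family was chosen from a value in these data, the low level of Igfbp5 at day 4 with doxycycline, so that value and every Igfbp5 difference built on it are given as description without a test. The p-values of the other genes come from a fit of all genes and are no independent support for the choice of the family.

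Igf1 binds the receptor tyrosine kinase encoded by Igf1r, which signals through insulin receptor substrates to PI3K and AKT and through SHC and GRB2 to the MAP kinases. The secreted proteins encoded by Igfbp1 to Igfbp6 bind IGFs with high affinity, prolong their life outside the cell and release them when proteases such as pappalysins cut them. Igfbp7 belongs to the wider family and binds IGFs weakly. In the early embryo IGF signalling is known for growth and survival of the epiblast and its derivatives.

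RNA of mouse epiblast stem cells (primed pluripotent cells) grown as embryoid bodies in serum-containing medium was sequenced in 12 libraries. All cells carried a doxycycline-inducible FLAG-Mixl1 transgene; Mixl1 is a homeobox gene of the primitive streak. NoDox_d2 and NoDox_d4 were collected on days 2 and 4 without doxycycline, and D1Dox_d2 and D3Dox_d4 on days 2 and 4 with 1 µg/mL of it (n = 3 each). What the digit after the D stands for is not defined in the labels. They also do not say whether the line is a clone or whether replicates were separate cultures, so a p-value here reflects only how far these libraries scatter. No cells without the transgene received the drug, so effects of the drug and of Mixl1 cannot be told apart.

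Libraries held 24100487 to 28020036 counts, and 3 counts correspond to 0.106 to 0.130 CPM (counts scaled to a common library size with TMM). Mixl1 stood at 362 to 478 CPM in the 6 doxycycline libraries and at 0.593 to 1.83 CPM in 5 of the 6 others, but at 91.0 CPM in the library labelled NoDox_d2 replicate 1. Replicates 1 of both NoDox groups stood apart, with correlations to their partners of 0.957 to 0.961 against 0.990 to 0.991 between replicates 2 and 3. Results that change without both are given that way as well. The 8 epiblast stem cell markers summed to 1214 to 1305 CPM in NoDox_d2 and 589 to 655 CPM in D1Dox_d2. At day 4 they summed to 418 to 761 CPM in NoDox_d4 and 435 to 484 CPM in D3Dox_d4. The 13 fibroblast or feeder markers summed to 1790 to 2186 CPM in D1Dox_d2 and to 174 to 779 CPM elsewhere, and the 7 neuron markers to 1473 to 1655 CPM in D3Dox_d4 and 160 to 548 CPM elsewhere. In these bulk samples, fewer cells of a type and less RNA per cell cannot be told apart.

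Promoters are shown for 4 genes, namely the receptor gene Igf1r, Igfbp5, from whose level the family was chosen, its neighbour Igfbp2, and Igfbp7, the gene with the most stable call at day 2. Each run holds the 250 bases before the RefSeq start, 5′ to 3′ on the gene's strand (GRCm38.p6, RefSeq). The positions are chr7:67952007-67952256 on the plus strand for Igf1r, chr1:72824230-72824479 on the plus strand for Igfbp2, chr1:72874866-72875115 on the minus strand for Igfbp5 and chr5:77408046-77408295 on the minus strand for Igfbp7. Capitals mark the letters GGGCGG, a GC box, or the same letters on the other strand.
Igf1r: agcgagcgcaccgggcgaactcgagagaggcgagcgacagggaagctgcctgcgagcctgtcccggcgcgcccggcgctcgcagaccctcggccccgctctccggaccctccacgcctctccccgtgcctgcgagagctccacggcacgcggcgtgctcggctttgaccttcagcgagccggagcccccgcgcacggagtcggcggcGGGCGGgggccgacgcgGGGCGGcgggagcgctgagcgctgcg
Igfbp2: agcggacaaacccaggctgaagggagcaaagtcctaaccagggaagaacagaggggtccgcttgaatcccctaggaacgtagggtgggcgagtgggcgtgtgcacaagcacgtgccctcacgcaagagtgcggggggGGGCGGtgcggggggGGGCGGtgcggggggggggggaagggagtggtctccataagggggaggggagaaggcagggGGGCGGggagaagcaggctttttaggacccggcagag
Igfbp5: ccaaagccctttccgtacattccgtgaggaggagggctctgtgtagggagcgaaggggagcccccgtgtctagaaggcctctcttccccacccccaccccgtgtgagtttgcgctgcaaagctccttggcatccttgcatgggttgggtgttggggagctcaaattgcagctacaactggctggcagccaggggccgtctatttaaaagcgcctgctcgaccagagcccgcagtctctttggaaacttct
Igfbp7: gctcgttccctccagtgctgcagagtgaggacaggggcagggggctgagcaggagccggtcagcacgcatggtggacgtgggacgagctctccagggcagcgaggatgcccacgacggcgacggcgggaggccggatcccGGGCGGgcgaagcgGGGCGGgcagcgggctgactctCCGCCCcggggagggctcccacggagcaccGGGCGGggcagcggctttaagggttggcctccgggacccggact

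Igf1r held GGGCGG 43 and 26 bases before its start, Igfbp2 at 113, 98 and 37 bases, and Igfbp7 at 110, 96, 74 and 44 bases. Igfbp2 has a second RefSeq start, whose window (chr1:72825137-72825386, plus strand, 56.4% GC, 11 CpG pairs) is not shown and held no GGGCGG. Of 32851 promoters of 27025 genes, 32.7% held these letters on either strand in a window of this length. Igfbp5 held none of the 5 motifs searched on both strands, the others being the core promoter element TATAAA (in 12.4% of promoters), CCAAT (33.9%), the paired-type homeodomain site, which is TAAT followed after 3 bases by its reverse complement (0.463%), and the forkhead site GTAAACA (3.17%). TATAAA stood 28 bases before the start of Igfbp4 and, on the other strand, 148 bases before that of Igfbp6. None of the 10 windows of the 9 genes held the homeodomain or the forkhead letters. The 4 windows shown had a GC content of 77.6% for Igf1r, 67.2% for Igfbp2, 58.8% for Igfbp5 and 74.0% for Igfbp7, against a median of 52.4% over all promoters, and held 42, 14, 10 and 26 CpG pairs against a median of 6. The windows were searched as letters and no binding was measured.

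Among the 9 genes are 2 neighbouring pairs (GRCm38, GENCODE vM25). Igfbp2 (chromosome 1, 72824503 to 72852474, plus strand) and Igfbp5 (72857932 to 72874884, minus strand) point towards each other with 5.5 kb and no gene between them. Igfbp1 (chromosome 11, 7197782 to 7202546, plus strand) and Igfbp3 (7206086 to 7213923, minus strand) do the same at a distance of 3.5 kb. Igf1 lies on chromosome 10 (87858265 to 87937042, plus strand), Igf1r on chromosome 7 (67952827 to 68233668, plus strand), Igfbp4 on chromosome 11 (99041244 to 99054392, plus strand), Igfbp6 on chromosome 15 (102144362 to 102149511, plus strand) and Igfbp7 on chromosome 5 (77349240 to 77408041, minus strand). The counts are per gene over its exons without regard to strand. Igfbp7 shares 7.03% of its exon bases with Polr2b on the opposite strand, and the other 8 genes share none. With strand ignored, reads from the shared bases cannot be told apart by strand.

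Igf1 transcripts were scarce. In NoDox_d2 the replicates 1 to 3 held 1.84, 0.632 and 0.446 CPM, and in D1Dox_d2 they held 9.36, 6.22 and 8.58 CPM. In NoDox_d4 they held 19.8, 1.02 and 1.04 CPM, and in D3Dox_d4 0.651, 0.811 and 0.637 CPM. All D1Dox_d2 libraries lay above all NoDox_d2 libraries, and 1 library, NoDox_d4 replicate 1, lay above every other. It also held the highest fibroblast or feeder sum among the NoDox libraries, 779 CPM; its part in the Igf1 level was not tested.

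At day 2 Igf1 rose with doxycycline by 3.04 ± 1.00 on the log2 scale (± SE; adjusted p = 0.0416 in edgeR). The call was lost when any D1Dox_d2 or D3Dox_d4 library, or NoDox_d2 replicate 2 or 3, was left out (adjusted p 0.0572 to 0.134). Without both NoDox libraries numbered 1, which kept only replicates 2 and 3 of each NoDox group, the change was 3.89 ± 0.28 (adjusted p = 4.95e-08). At day 4 it fell by 3.37 ± 1.03 on the log2 scale (adjusted p = 0.0352), and this rested on NoDox_d4 replicate 1. Without that library the value was −0.55 (adjusted p = 0.486), and without both NoDox libraries numbered 1 it was −0.55 ± 0.31 (adjusted p = 0.184). The call was also lost with any D1Dox_d2 or D3Dox_d4 library left out (0.0508 to 0.111) and in a fit of only the NoDox_d4 and D3Dox_d4 libraries (0.0866). Of the other ligand genes, Ins1 and Ins2 were at 0 in all 12 libraries.

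Igf2, an embryonic growth factor gene, was low: it held 2.26, 2.73 and 1.75 CPM in NoDox_d2, 1.86, 2.44 and 2.21 CPM in D1Dox_d2, 2.72, 0.366 and 0.346 CPM in NoDox_d4 and 0.687, 2.32 and 1.23 CPM in D3Dox_d4. NoDox_d4 replicate 1 lay above D3Dox_d4 and its partners below it. The changes were −0.05 ± 0.65 at day 2 (edgeR adjusted p = 0.966) and 0.30 ± 0.68 at day 4 (adjusted p = 0.794). Without both NoDox libraries numbered 1 the day 4 change was 1.98 (adjusted p = 0.00723) and the effect at day 4 exceeded that at day 2 by 2.03 (adjusted p = 0.025).

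Igf1r, the receptor gene, was highest in D3Dox_d4. Its levels were 155, 159.8 and 154 CPM in NoDox_d2, 155, 161 and 187 CPM in D1Dox_d2 and 177, 165 and 193 CPM in NoDox_d4. In D3Dox_d4 they were 246, 353 and 357 CPM. Every D3Dox_d4 library lay above every other library, while the other 3 groups reached at most 193 CPM and D1Dox_d2 overlapped with both NoDox groups.

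At day 4 Igf1r rose by 0.84 ± 0.14 (SE, edgeR adjusted p = 0.0012), and at day 2 it changed by 0.10 ± 0.14 (adjusted p = 0.616). The rise at day 4 was called under all 20 alternatives, with values from 0.75 to 0.99, and was 0.83 ± 0.14 without both NoDox libraries numbered 1. The day 4 effect exceeded that at day 2 by 0.74 ± 0.19 (adjusted p = 0.0294), a call lost when any of 7 libraries was left out (adjusted p 0.0548 to 0.0746). All 7 neuron markers rose at day 4 as well, where 23.5% of all genes were called, and their part in the Igf1r level was not tested. The insulin receptor gene Insr, whose product pairs with that of Igf1r in hybrid receptors, fell at day 2 (−0.35 ± 0.11, adjusted p = 0.0344) and rose at day 4 (0.38 ± 0.11, adjusted p = 0.0282), a difference of 0.73 ± 0.16 (adjusted p = 0.0129). Each of these 2 Insr calls was lost in 6 alternatives. Igf2r, which encodes a clearance receptor for IGF2, changed by 0.14 ± 0.20 at day 2 (adjusted p = 0.624) and −0.33 ± 0.20 at day 4 (adjusted p = 0.258).

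**Figure D1:**
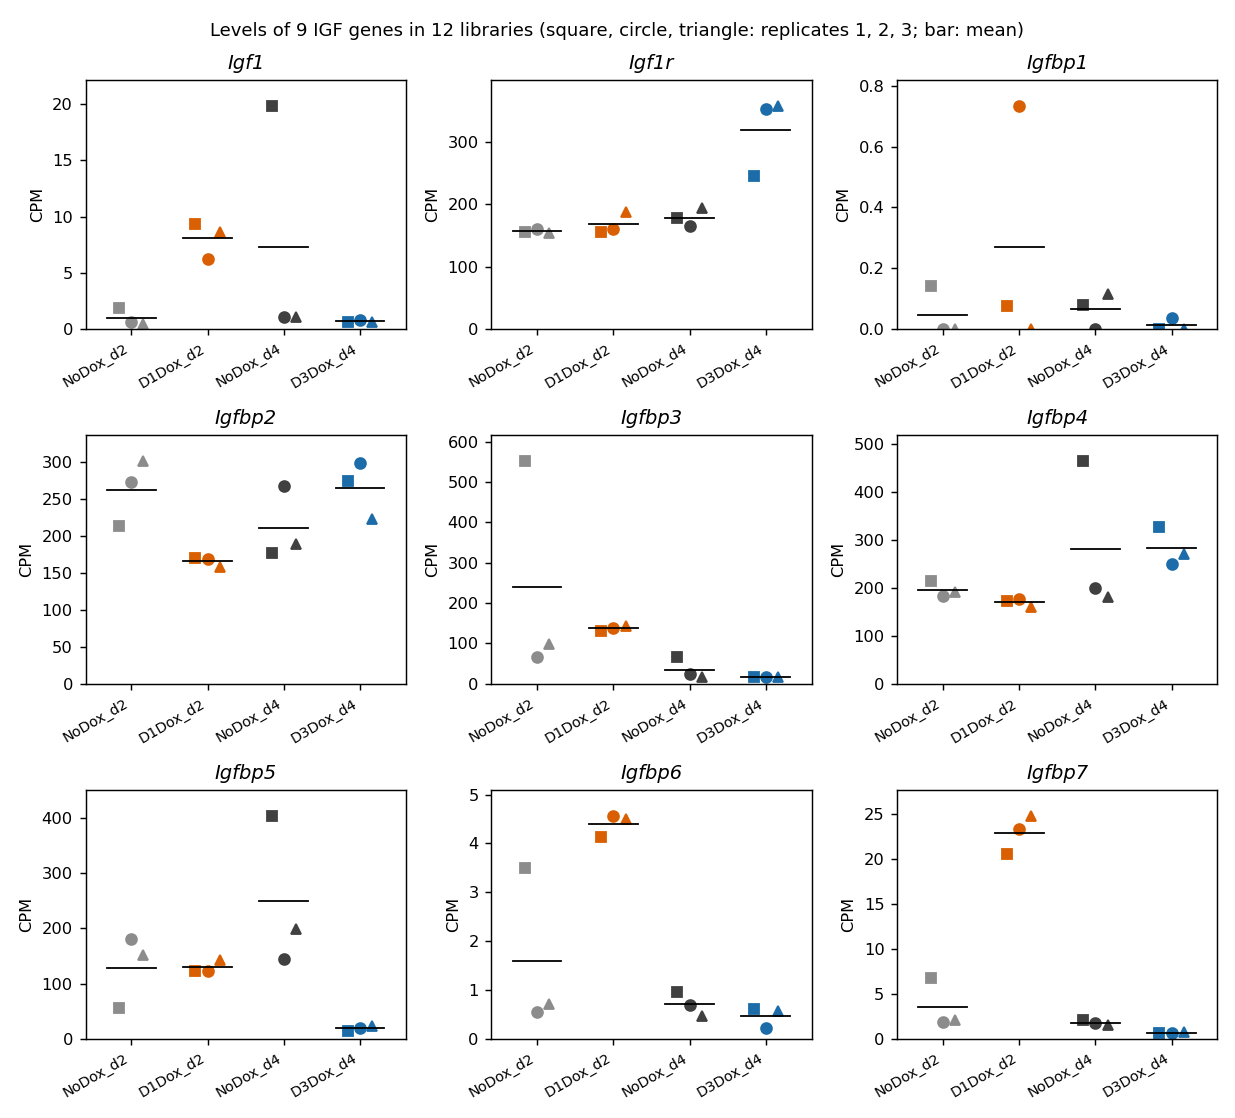
Levels (CPM, linear axes starting at 0) of the 9 genes in each of the 12 libraries by group; squares, circles and triangles are replicates 1, 2 and 3 and the bar is the mean of 3. Igfbp5 is lowest and Igf1r highest in D3Dox_d4, Igfbp7 is highest in D1Dox_d2, and single NoDox replicates 1 carry the highest values of Igf1, Igfbp3, Igfbp4 and Igfbp5.

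Igfbp5, whose protein binds IGFs and extracellular matrix, had its lowest level in D3Dox_d4. It stood at 54.8, 180.2 and 151 CPM in NoDox_d2 and at 123, 123 and 143 CPM in D1Dox_d2. In NoDox_d4 it stood at 404, 145 and 199.8 CPM, and in D3Dox_d4 at 13.6, 19.8 and 22.8 CPM. The D3Dox_d4 libraries lay below all 9 others. The lowest of the others, 54.8 CPM, was NoDox_d2 replicate 1, and the highest, 404 CPM, was NoDox_d4 replicate 1.

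The mean of Igfbp5 was 18.7 ± 4.71 CPM (SD, n = 3) in D3Dox_d4 and 249.6 ± 136 CPM in NoDox_d4, a log2 difference of −3.74 ± 0.47 (SE). The D3Dox_d4 level is the value from which the family was chosen, so the difference built on it is a description. This difference ranged from −4.01 to −3.20 over the alternatives and was −3.21 ± 0.18 without both NoDox libraries numbered 1. At day 2 the change was 0.01 ± 0.42 (edgeR adjusted p = 0.99), with D1Dox_d2 at 129.6 ± 11.7 CPM and NoDox_d2 at 129 ± 65.7 CPM; the sign of this small value changed between alternatives. Without both NoDox libraries numbered 1 it was −0.36 ± 0.17 (adjusted p = 0.0838). The effect at day 4 minus that at day 2 was −3.75 ± 0.61. Without doxycycline Igfbp5 differed between the days by 0.96 ± 0.42 (adjusted p = 0.183), or 0.06 ± 0.18 without both libraries numbered 1.

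Igfbp2 and Igfbp5, neighbours on chromosome 1, did not share a pattern over the 12 libraries (Pearson −0.443 of log2 CPM, a description). Igfbp2, which encodes a binding protein abundant in embryos and fetal serum, held 214, 273 and 301 CPM in NoDox_d2 and 169.5, 169 and 158 CPM in D1Dox_d2. It held 177, 268 and 188 CPM in NoDox_d4 and 275, 298 and 223 CPM in D3Dox_d4. The D1Dox_d2 libraries lay below all others, and the other 3 groups overlapped.

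Igfbp2 fell at day 2 (−0.66 ± 0.17, edgeR adjusted p = 0.015) and was −0.80 ± 0.13 without both NoDox libraries numbered 1 (adjusted p = 0.000188). Leaving out D1Dox_d2 replicate 3 (adjusted p = 0.0565) or NoDox_d2 replicate 3 (adjusted p = 0.0635) ended the call. At day 4 the change was 0.33 ± 0.17 (adjusted p = 0.196), and 0.54 with a call without NoDox_d4 replicate 2 (adjusted p = 0.0354). The effects of the 2 days differed by 0.99 ± 0.24 (adjusted p = 0.0226). That call was lost without D1Dox_d2 replicate 2 or 3, D3Dox_d4 replicate 2, or NoDox_d2 replicate 2 or 3 (0.0515 to 0.0577).

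Igfbp7, whose protein is secreted by mesenchymal and vascular cells, rose most clearly at day 2. It held 6.74, 1.82 and 2.05 CPM in NoDox_d2 and 20.5, 23.3 and 24.7 CPM in D1Dox_d2. It held 2.05, 1.71 and 1.499 CPM in NoDox_d4 and 0.578, 0.664 and 0.756 CPM in D3Dox_d4. D1Dox_d2 lay above and D3Dox_d4 below every library of the other groups, and NoDox_d2 replicate 1 lay between its partners and D1Dox_d2.

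The rise of Igfbp7 at day 2 was 2.69 ± 0.42 (edgeR adjusted p = 0.000786), called under all 20 alternatives with values from 2.37 to 3.55; it was 3.55 ± 0.17 without both NoDox libraries numbered 1. At day 4 Igfbp7 fell by 1.39 ± 0.46 on the log2 scale (adjusted p = 0.0489). That call was lost with any library left out except those of NoDox_d2 (adjusted p 0.0664 to 0.133), while the value stayed between −1.49 and −1.26; without both NoDox libraries numbered 1 it was −1.26 ± 0.23 (adjusted p = 0.000554). Its 2 effects were −4.08 ± 0.62 apart (adjusted p = 0.00262), from −4.94 to −3.76 with single libraries left out. Of the 13 fibroblast or feeder markers 10 rose at day 2 and none fell, where 28.4% of all genes were called, and none of the 13 was at 0 in any group. Without both NoDox libraries numbered 1 all 13 rose, where 53.2% of all genes were called. Of 6 endothelial markers tested, 4 rose at day 2, with a sum over 8 markers of 38.5 to 43.0 CPM in D1Dox_d2 and 5.5 to 14.4 CPM in NoDox_d2, and Emcn at 0 in D1Dox_d2. The part of these cells in the Igfbp7 level was not tested. In D3Dox_d4, where Igfbp7 was lowest, Col1a2 alone gave 307 to 370 CPM of the fibroblast or feeder sum, and the other 12 markers summed to 154 to 177 CPM. The same 12 summed to 134 to 729.5 CPM in NoDox_d4, the control of that day, and to 194 to 338 CPM in NoDox_d2. At day 4, 1 of the 13 rose and 3 fell, where 23.5% of all genes were called. Without both NoDox libraries numbered 1, 5 rose and 2 fell, where 38.5% of all genes were called.

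**Figure D2:**
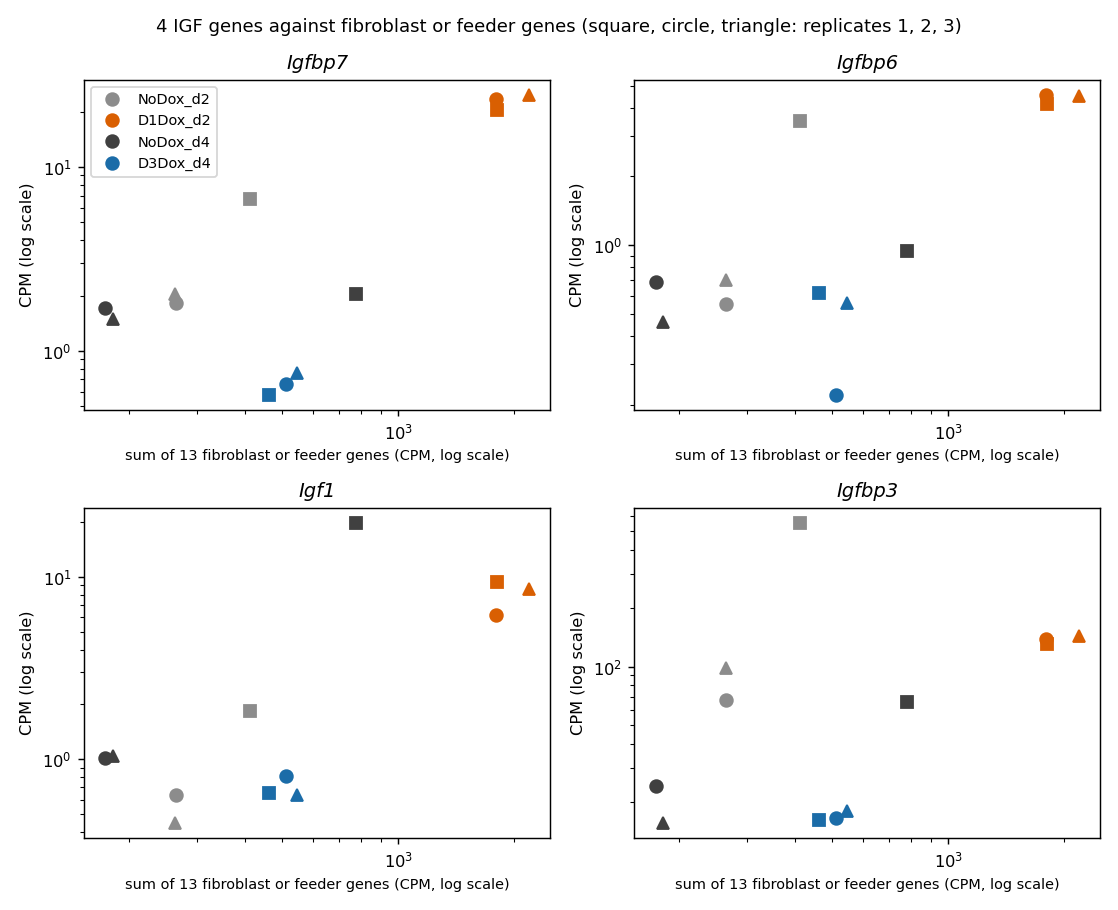
Igfbp7, Igfbp6, Igf1 and Igfbp3 (CPM, log scale) against the sum of 13 fibroblast or feeder genes (CPM, log scale) in the 12 libraries; colour is the group and shape the replicate. D1Dox_d2 lies at the highest sums, 1790 to 2186 CPM, and at the highest Igfbp7 and Igfbp6, whereas the highest Igf1 and Igfbp3 are those of 1 NoDox replicate each.

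Igfbp6, which encodes a binding protein that prefers IGF2, was low throughout. It held 3.495, 0.553 and 0.707 CPM in NoDox_d2, 4.13, 4.56 and 4.51 CPM in D1Dox_d2, 0.947, 0.691 and 0.461 CPM in NoDox_d4 and 0.615, 0.221 and 0.557 CPM in D3Dox_d4. D1Dox_d2 lay above all other libraries, the nearest being NoDox_d2 replicate 1. At day 2 the change was 1.46 ± 0.59 (edgeR adjusted p = 0.0833), and without NoDox_d2 replicate 1 it was 2.78 (adjusted p = 0.000377). Leaving out both NoDox libraries numbered 1 gave 2.78 ± 0.34 (adjusted p = 9.36e-06). At day 4 it was −0.59 ± 0.68 (adjusted p = 0.584). Over the 12 libraries Igfbp6 and Igfbp7 had the highest correlation of any pair of the 8 genes tested (Pearson 0.948), followed by the opposite pattern of Igf1 and Igfbp2 (−0.849); the libraries share group and depth, and this is a description.

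Igfbp3 encodes the main IGF carrier of serum. Its levels were 551, 67.4 and 97.9 CPM in NoDox_d2 and 130.2, 138 and 143 CPM in D1Dox_d2, so that 1 NoDox_d2 library lay far above D1Dox_d2 and the other 2 below it. They were 65.6, 24.0 and 15.6 CPM in NoDox_d4 and 16.1, 16.5 and 17.9 CPM in D3Dox_d4, which overlapped. The highest library was NoDox_d2 replicate 1, the one with Mixl1 at 91.0 CPM. Its 6 primitive streak markers, Mixl1 among them, summed to 1518 CPM, against 132 and 193 CPM in its partners and 555 to 574 CPM in D1Dox_d2. The induced gene Mixl1 alone gave 362 to 392 CPM of the D1Dox_d2 sums. T gave 1261 CPM in NoDox_d2 replicate 1, 100 and 142 CPM in its partners, and 51.1 to 54.9 CPM in D1Dox_d2. The part of the 6 markers in the Igfbp3 level was not tested.

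The day 2 change of Igfbp3 was −0.80 ± 0.67 (edgeR adjusted p = 0.402) and turned to 0.72 without NoDox_d2 replicate 1 (adjusted p = 0.217), or 0.72 ± 0.16 without both NoDox libraries numbered 1 (adjusted p = 0.00151). At day 4 it was −1.06 ± 0.70 (adjusted p = 0.308), and −0.23 ± 0.17 without both (adjusted p = 0.317). Igfbp3 was the 1 gene of the 8 that passed the test between the days without doxycycline, with a fall of 2.77 ± 0.72 on the log2 scale (adjusted p = 0.0314), and −2.06 ± 0.18 without both libraries numbered 1 (adjusted p = 2.21e-06). The call was lost without NoDox_d2 replicate 1 alone (−1.24, adjusted p = 0.0927), without NoDox_d4 replicate 2 (0.109) or 3 (0.111), without D1Dox_d2 replicate 2 (0.051) or 3 (0.0504) or D3Dox_d4 replicate 2 (0.05), and with only the libraries compared (0.206).

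Igfbp4 encodes the binding protein cut by pappalysin 1. It held 215, 183 and 191 CPM in NoDox_d2, 173.5, 177 and 161 CPM in D1Dox_d2, 465, 199 and 182 CPM in NoDox_d4 and 327, 251 and 271 CPM in D3Dox_d4. NoDox_d4 replicate 1 was the highest library, and its partners lay below D3Dox_d4. The changes were −0.20 ± 0.28 at day 2 (edgeR adjusted p = 0.625) and 0.01 ± 0.28 at day 4 (adjusted p = 0.993), the latter with a sign that changed between alternatives, scaling included. Without NoDox_d4 replicate 1 the day 4 change was 0.57 (adjusted p = 0.00655), and without both NoDox libraries numbered 1 it was 0.57 ± 0.11 (adjusted p = 0.000611).

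Igfbp1, a binding protein gene of liver and decidua, had 4, 20, 5 and 1 counts in all over NoDox_d2, D1Dox_d2, NoDox_d4 and D3Dox_d4. A level of 0.732 CPM in D1Dox_d2 replicate 2 accounted for most of the 20 counts, and the other 11 libraries held 0 to 0.141 CPM, near the level of 3 counts. No difference of Igfbp1 was detectable at this depth. Without the filter edgeR gave adjusted p-values of 0.294 at day 2 and 0.601 at day 4.

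**Figure D3:**
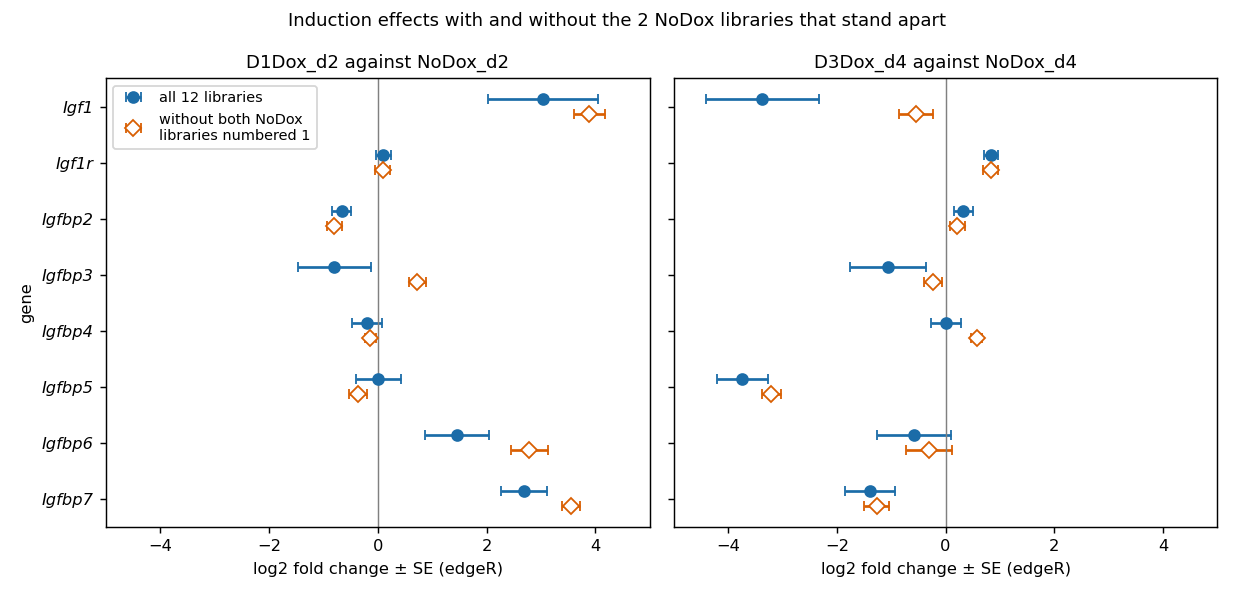
Log2 fold changes of the 8 tested genes with doxycycline at day 2 (left) and day 4 (right), ± SE from edgeR, with all 12 libraries (filled circles) and without both NoDox libraries numbered 1 (open diamonds). Igf1r and Igfbp5 at day 4 and Igfbp7 at day 2 keep their place on one side of 0, Igfbp3 at day 2 changes sides, and Igf1 at day 4 moves from −3.37 to −0.55.

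Igf1 and Igfbp7 rose at day 2, Igfbp2 fell and 5 of the 8 genes did not pass the test, against 28.4% of 18109 genes called in either direction. The libraries of the 2 groups did not overlap for 5 of the 8 genes, against 46.0% of all genes, and the median log2 fold change was 0.055 against −0.030 over all genes. Without both NoDox libraries numbered 1 there were 5 calls, with Igf1, Igfbp3, Igfbp6 and Igfbp7 higher and Igfbp2 lower, while 53.2% of all genes were called. At day 4, where the family was chosen, the count leaves out Igfbp5. Of the other 7 tested genes Igf1r was called higher and Igf1 and Igfbp7 lower, beside 23.5% of all genes called; 3 of the 7 had no overlap, beside 40.6%, and their median was −0.59 beside −0.03. Without both libraries 3 of the 7 were called, Igf1r and Igfbp4 higher and Igfbp7 lower, beside 38.5% of all genes. None of these counts is evidence about the family, since the genes were few and were chosen with these data known.

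With Igfbp5 left out in the same way, the effects of the 2 days differed for 4 of 7 genes, where 12.9% of all genes were called. Igfbp2 and Igf1r had the higher effect at day 4, and Igf1 (−6.41 ± 1.44, edgeR adjusted p = 0.0159) and Igfbp7 the lower; without both NoDox libraries numbered 1 the Igf1 difference was −4.44 ± 0.43. The differences of Igfbp3 (−0.26 ± 0.96, adjusted p = 0.883), Igfbp4 (0.21 ± 0.40, adjusted p = 0.76) and Igfbp6 (−2.05 ± 0.90, adjusted p = 0.149) did not pass. All 7 passed without both libraries, where 34.5% of all genes were called. Between NoDox_d4 and NoDox_d2, 1 of the 8 was called against 10.6% of all genes, and 2, Igfbp3 and Igf1r, had no overlap against 23.2%. Igf1 (2.89 ± 1.00, adjusted p = 0.0916) moved to 0.93 ± 0.36 without both libraries. These comparisons share libraries.

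D3Dox_d4 against D1Dox_d2 compares the doxycycline groups alone, in which day and induction differ together. With Igfbp5 left out, all 7 genes had no overlap between these groups, where 65.7% of all genes had none, and 6 were called, where 44.0% of all genes were. Igf1r (0.93 ± 0.14, edgeR adjusted p = 0.000372) and Igfbp2 (0.68 ± 0.17, adjusted p = 0.0085) were higher at day 4. Igfbp7 (−5.09 ± 0.48, adjusted p = 2.1e-05), Igfbp6 (−3.23 ± 0.66, adjusted p = 0.00246), Igfbp3 (−3.03 ± 0.73, adjusted p = 0.00647) and Igf1 (−3.52 ± 1.04, adjusted p = 0.0176) were lower. The Igfbp5 difference, a description, was −2.79 ± 0.45. Igfbp4 (0.73 ± 0.28, adjusted p = 0.0542) was called in several alternatives, among them that with only the libraries compared (0.71, adjusted p = 0.000154). The Igf1 call was lost without D3Dox_d4 replicate 1, 2 or 3 (0.0509 to 0.0607).

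To compare the genes with each other, levels were divided by the summed exon length (CPM per kb). On this scale the mean of Igfbp2 was the highest of the 7 binding protein genes in every group, at 142, 89.7, 114 and 143.5 in NoDox_d2, D1Dox_d2, NoDox_d4 and D3Dox_d4. Igf1r stood at 9.32, 9.99, 10.6 and 18.97, and the mean of Igf1 was at most 0.813. The 7 binding protein genes summed to 358, 243 and 265 CPM per kb in NoDox_d2, 214, 220.1 and 216 in D1Dox_d2, 292, 224 and 183 in NoDox_d4 and 231, 228 and 192.5 in D3Dox_d4. The D1Dox_d2 sums lay below all of NoDox_d2, and those of day 4 overlapped.

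The make-up of this sum differed more than its size. Igfbp2 took 32.3%, 60.9% and 61.5% of it in NoDox_d2 and 42.9%, 41.6% and 39.7% in D1Dox_d2. In NoDox_d4 it took 32.8%, 64.7% and 55.7%, and in D3Dox_d4 64.3%, 70.9% and 62.6%. Thus the 2 NoDox libraries numbered 1 had the lowest Igfbp2 shares of all, with Igfbp3 at 49.1% in NoDox_d2 replicate 1 and Igfbp4 and Igfbp5 at 36.1% and 23.1% in NoDox_d4 replicate 1. Igfbp5 made up 0.979% to 1.98% in D3Dox_d4 and 2.54% to 23.1% elsewhere. Igfbp7 made up 7.93% to 9.47% in D1Dox_d2 and 0.207% to 1.56% elsewhere, and Igfbp3 19.5% to 21.1% in D1Dox_d2 and 2.22% to 2.97% in D3Dox_d4.

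**Figure D4:**
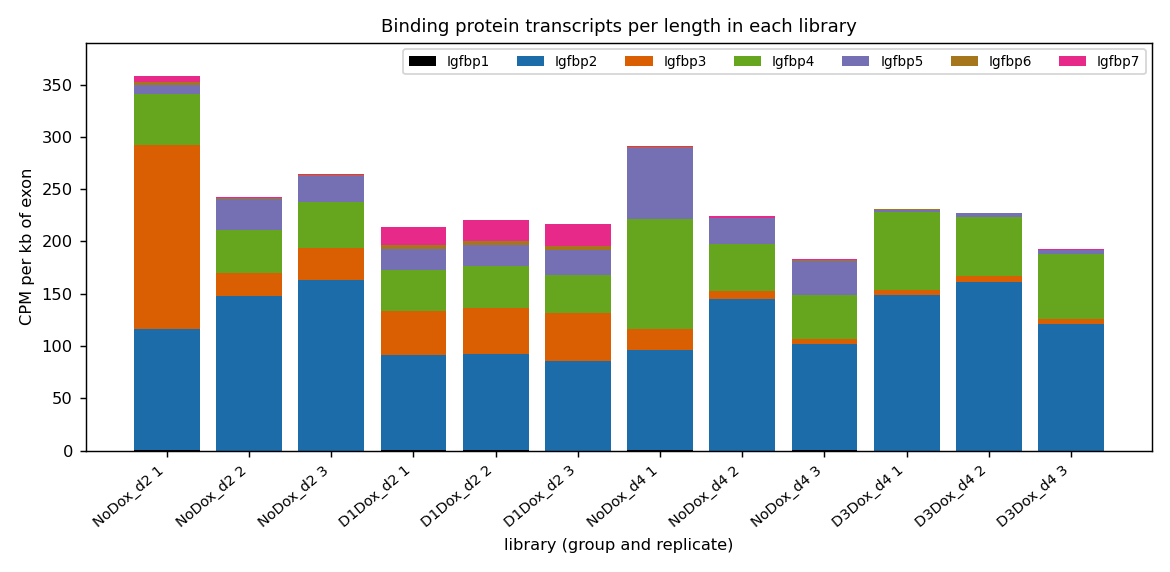
Stacked levels of the 7 binding protein genes (CPM per kb of exon) in each library, by group and replicate. Igfbp2 is the largest part except in NoDox_d2 replicate 1, where Igfbp3 is (49.1%), and NoDox_d4 replicate 1, where Igfbp4 is (36.1%); Igfbp5 is thin in D3Dox_d4 and Igfbp7 widest in D1Dox_d2.

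For the 7 genes whose mean reached 5 CPM in some group, which leaves out Igfbp1 and Igfbp6, the genes with the most similar levels over the 12 libraries were found by Pearson correlation of log2 CPM among 11878 genes. They were Prrx1 (0.968), Col3a1 (0.955) and Smc2 (0.952) for Igf1, Plxna3 (0.963), Camsap2 (0.957) and Mtmr3 (0.949) for Igf1r, and Ddit4 (0.928), Fggy (0.919) and Zfp330 (0.915) for Igfbp2. For Igfbp3 they were Cul4b (0.986), Ptgs1 (0.983) and Rassf3 (0.980), and for Igfbp4 Hoxb5 (0.973), Hoxb6 (0.963) and Skap2 (0.953). For Igfbp5 they were Kif4 (0.987), Kmt5a (0.973) and Ttk (0.970), and for Igfbp7 Mmp3 (0.994), Bgn (0.987) and Tnfrsf12a (0.987). Prrx1 and Col3a1 are also on the fibroblast or feeder list. With 4 groups in the 12 libraries, high values arise readily among so many genes, and they are given without a test.

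Of 50 other genes of the pathway, 48 were tested. At day 2, 8 rose, 8 fell and 32 did not pass, where 28.4% of all genes were called, with a median log2 fold change of −0.19. At day 4, 12 rose, 7 fell and 29 did not pass, where 23.5% of all genes were called, with a median of −0.04. Without both NoDox libraries numbered 1, 15 rose and 16 fell at day 2, where 53.2% of all genes were called, and 16 rose and 10 fell at day 4, where 38.5% were. The effects of the days differed for 10, of which 6 were higher at day 4, where 12.9% of all genes were called. None of these counts, nor those of single lists that follow, is called particular to the pathway.

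Igfbpl1 and Kazald1, which encode secreted proteins with a domain like that of the binding proteins, were both called on both days. Of all genes, 28.4% were called at day 2 and 23.5% at day 4. Igfbpl1 held 56.3, 40.2 and 41.9 CPM in NoDox_d2, 33.8, 26.8 and 25.0 in D1Dox_d2, 26.9, 41.6 and 30.1 in NoDox_d4 and 275, 220.4 and 232 in D3Dox_d4, where it lay above all other libraries. It fell at day 2 (−0.69 ± 0.19, edgeR adjusted p = 0.0181; lost without D1Dox_d2 replicate 2 or 3) and rose at day 4 (2.88 ± 0.20, adjusted p = 2.6e-06), a difference of 3.57 ± 0.27 (adjusted p = 5.23e-05). Kazald1 rose on both days, by 2.39 ± 0.33 (adjusted p = 0.000355) and 2.59 ± 0.34 (adjusted p = 0.000269), from means of 0.442 and 0.370 CPM to 2.35 and 2.25 CPM. The protease gene Pappa2 rose on both days (1.44 ± 0.30, adjusted p = 0.00447, and 1.52 ± 0.28, adjusted p = 0.00248), and Pappa fell at day 4 (−1.45 ± 0.29, adjusted p = 0.00359). The neuron markers that rose at day 4 are those given above; their part in Igfbpl1 was not tested.

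All 3 genes of IGF2 mRNA-binding proteins were called lower on both days, 3 of these calls not stably. Of all genes, 13.4% were called lower at day 2 and 10.2% at day 4. Igf2bp2 fell by 0.83 ± 0.16 on the log2 scale at day 2 (edgeR adjusted p = 0.00276) and Igf2bp3 by 0.51 ± 0.12 (adjusted p = 0.00812). At day 4 Igf2bp1 fell by 0.54 ± 0.09 (adjusted p = 0.0013) and Igf2bp2 by 0.50 ± 0.16 (adjusted p = 0.0383). The calls of Igf2bp1 at day 2 and of Igf2bp2 and Igf2bp3 at day 4 were lost in 5, 8 and 11 alternatives.

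Among adaptors and inhibitors of the receptor, 4 of 7 rose and 1 fell at day 2 (28.4% of all genes called), and 3 rose and 1 fell at day 4 (23.5%). Without both NoDox libraries numbered 1, 5 rose and 2 fell at day 2 (53.2%), and 3 rose and 2 fell at day 4 (38.5%). Grb14, which encodes an inhibitory adaptor, rose at day 2 by 2.21 ± 0.22 (edgeR adjusted p = 3.75e-05) and the substrate gene Irs2 by 0.80 ± 0.10 (adjusted p = 0.000222). At day 4 Shc1, the adaptor towards the MAP kinases, rose by 1.77 ± 0.23 (adjusted p = 0.000268) and Grb10, another inhibitory adaptor, by 0.99 ± 0.24 (adjusted p = 0.0112). Of 18 genes of PI3K, AKT and mTOR, 2 rose and 1 fell at day 2, and 3 rose and 2 fell at day 4. Without both libraries 6 rose and 5 fell at day 2, and 4 rose and 3 fell at day 4, against the same shares. The S6 kinase gene Rps6kb1 rose at day 2 (0.46 ± 0.09, adjusted p = 0.00238) and fell at day 4 (−0.36 ± 0.09, adjusted p = 0.0101; lost with no filter). Of 5 FOXO and GSK3 genes, Foxo1 fell at day 2 (−0.70 ± 0.20, adjusted p = 0.0245, lost in 5 alternatives) and Foxo3 rose at day 4 (0.63 ± 0.12, adjusted p = 0.00246). Of 3 genes of the growth hormone axis, Stat5a rose at day 4 (1.07 ± 0.20, adjusted p = 0.00273).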

How the data were processed

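Per the file headers, the authors deposited raw counts per gene from featureCounts 2.0.1, which counted read pairs on GENCODE vM25 (GRCm38) without strand, together with each gene's exon length. Per the labels' protocols, 150 bp paired reads were trimmed to at least 50 bp with Trim Galore; the submitters' processing notes also name STAR and DESeq2. Identifiers were matched to symbols for 55141 of 55487 genes.

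Counts were fitted with edgeR 4.0.16 (R 4.3.3): TMM, filterByExpr, 1 coefficient per group, quasi-likelihood F-test, 8 residual degrees of freedom, all 12 libraries. Adjusted p-values are Benjamini-Hochberg over 18109 genes, called under 0.05. A check on simulated data required only that known fold changes were recovered. It had the same spread for all genes and no outlying library, so it does not give the error rate of the calls here. The SE is |log2 fold change| over the root of F. Groups come from sample titles. Same-numbered NoDox libraries deviated from their group means together (correlations 0.545, 0.361 and 0.308). Numbers were therefore treated as paired between NoDox_d2 and NoDox_d4 only. Replicate 1 stood apart in both groups, and deviations from the mean of a group sum to 0. The correlations can thus follow from replicates 1 alone, and pairing of replicates 2 and 3 was not tested. Correlations used a prior count of 2.

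The alternatives were upper-quartile scaling, DESeq2 size factors, 1 CPM in 3 libraries, no filter, the replicate block, only the libraries compared, the DESeq2 1.42.0 test, both NoDox libraries numbered 1 left out, and each library left out. The 9 genes, the lists, the rule for named genes (all 9, the 2 lowest adjusted p per list, and Igf2, Igf2r and Insr) and the alternatives were chosen with earlier results of these data known; Ins1, Ins2, Igf2bp1 at day 2 and Igf2bp3 at day 4 were named after their values were seen, and 2 results that the rule took are not reported here. A planned comparison of protein sequences was not made here.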

Additional observations from a re-analysis of the deposited data

Results flagged for a closer look

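The effect of doxycycline differed between day 4 and day 2 for 4 of the 7 genes tested besides Igfbp5, by the interaction term of the edgeR fit, where 12.9% of all genes were called. The differences (day 4 minus day 2, log2) were 0.99 for Igfbp2, 0.74 for Igf1r, −4.08 for Igfbp7 and −6.41 for Igf1. For Igfbp5, whose day 4 level chose the family, the difference was −3.75, given as description. Both NoDox libraries numbered 1 enter these values. No test of an outlying value was made within these groups of 3.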

How the results depend on the processing

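Of 795 values recomputed for single genes under 21 alternatives, 697 kept their direction and side of the threshold, 52 lost the call, 22 gained one and 24 changed sign. The counts that follow are over the 8 genes tested and include Igfbp5, whose values at day 4, and the differences built on them, are description. The number of genes called at day 2 was 3, where 28.4% of all genes were called. It was 5 without both NoDox libraries numbered 1 (53.2% of all genes), and 1 to 4 with single libraries left out (16.4% to 39.7%). At day 4 it was 4 (23.5% of all genes), and 2 to 4 with single libraries left out (14.6% to 29.6%). Without Igfbp5 the day 4 count was 3 of 7. The replicate block, where numbers do not pair the samples, gave 2 at day 4 (23.8% of all genes). It ended the calls of Igf1 (−2.44, edgeR adjusted p = 0.0754) and Igfbp7 (−1.37, adjusted p = 0.0543). For the difference of the effects it was 5 (12.9% of all genes), 8 without both libraries (34.5%), and 3 to 7 with single libraries left out (6.56% to 26.9%). Without Igfbp5 the count for the difference was 4 of 7, and 7 of 7 without both libraries. Between the NoDox days the number called was 1 (10.6% of all genes), 2 with no filter (Igf1 added, 5.64%), and 0 with only the libraries compared (1.24%). With single libraries left out it was 0 to 1 (5.66% to 17.1%). The replicate block, whose numbers were treated as pairing these samples, gave −2.56 for Igfbp3 (edgeR adjusted p = 0.0226). In only these libraries, a fit added after seeing the data, the block gave −2.43 (adjusted p = 0.00698), with 11.6% of all genes called. The pairing may rest on replicates 1 alone, so the fits with the block are no support for the Igfbp3 call. Without the block the call was lost in only these libraries.

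Signs changed where values lay near 0 or 1 NoDox library decided them. Igfbp5 at day 2 was −0.0056 with upper-quartile scaling, −0.0111 with no filter, −0.36 without both libraries, and −0.37 to 0.32 with single libraries left out. Igfbp3 at day 2 was 0.72 without both, and −1.25 to 0.72 with single libraries left out. Igfbp4 at day 4 was −0.011 with DESeq2 size factors, −0.0455 with upper-quartile scaling, −0.0225 at 1 CPM, −0.0223 with only the libraries compared, −0.0051 with the DESeq2 test, and −0.23 to 0.57 with single libraries left out. The leave-one-out ranges of the difference of effects were −1.78 to 0.57 for Igfbp3 and −0.0167 to 0.78 for Igfbp4, and those between the NoDox days −1.58 to 0.14 for Igfbp6 and −0.0382 to 0.76 for Igfbp4. Beyond the libraries left out, the cause of these shifts was not tested. Depth limits Igfbp1.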
